A study of Mus musculus with 4 samples.

Results

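The interleukin 6 family is described here by 10 genes in mouse bone marrow stromal cells given Cre recombinase to delete Setd2, beside control cells. Their symbols were matched exactly to the deposited count table, which lists 44788 genes, and all 10 were found. They are the ligand genes Il6, Lif, Il11 and Clcf1, the receptor genes Il6st, Il6ra, Lifr and Osmr, the transcription factor gene Stat3 and the feedback inhibitor gene Socs3. All 4 libraries came from C57BL/6J stromal cells homozygous for a floxed Setd2 allele (Setd2 fl/fl), taken at passage 2 and exposed to puromycin at 2 µg/ml for 4 days. Setd2 encodes the enzyme that completes trimethylation of lysine 36 on histone H3. The tested cells carried a lentivirus for Cre recombinase, which cuts out the floxed part of the gene (2 libraries), and the control cells carried a lentivirus for GFP (2 libraries). The control virus held no recombinase, so effects of Cre itself and of Setd2 loss cannot be told apart. Whether the libraries of a group were separate cultures or animals is not stated in the labels, and a p-value therefore reflects only how far these libraries differ, a spread that may be technical.

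Most cytokines of this family signal through a shared receptor chain, gp130, which Il6st encodes. Each ligand also uses a more private chain: interleukin 6 binds the product of Il6ra, while LIF pairs gp130 with the LIF receptor (Lifr) and oncostatin M pairs it with the oncostatin M receptor (Osmr). The paired chains activate JAK kinases, these phosphorylate STAT3, and STAT3 switches on target genes that include Socs3, whose product shuts the receptor complex down. In bone marrow stroma the family is known for effects on osteoblasts, osteoclast formation and blood cell production.

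Library totals lay between 12371994 and 14315903 counts. Setd2 had 38.1 and 32.3 CPM (read count normalized to library size, here scaled by TMM) in the Cre libraries, against 107 and 106 CPM in the GFP libraries. Its level was lower in Cre, as labelled, but a fold of 0.331 remained. A gene count cannot tell cells that kept the gene from transcripts without the floxed part. All 7 stromal marker genes were detected, and their summed level was 19023 and 20069 CPM in Cre, against 15167 and 15046 CPM in GFP. Most of this sum was the collagen genes Col1a1 and Col1a2, which rose, as did Thy1. The other 5 markers summed to 943 and 986 CPM in Cre, against 1122 and 1067 CPM in GFP, a split made after the values were seen. Cxcl12, the gene of a chemokine that retains blood stem cells, fell (log2 fold change -0.28, adjusted p = 0.00513 by edgeR's quasi-likelihood test), and the 7 had a median of -0.05. All 7 macrophage markers were detected too, with sums of 2224 and 2216 CPM in Cre and 1890 and 1945 CPM in GFP. Of these, Cd68 and Lyz2 rose and Emr1 fell. Without Lyz2, likewise a choice made after the values were seen, the other 6 summed to 539 and 519 CPM in Cre, against 502 and 537 CPM in GFP, and the groups overlapped. The T cell gene Cd3e and the neutrophil genes S100a9 and Elane had 0 counts in every library. Of the other neutrophil genes listed, S100a8 had 35 and 30 counts in Cre, against 25 and 32 counts in GFP. Ly6g had at most 2 counts. GFP replicate 2 stood apart in its ribosomal RNA and in other abundant RNAs. Among these the protein-coding gene Lars2 had 1712 and 1816 CPM in Cre, against 2345 and 9991 CPM in GFP. The share of counts on the 18S gene Rn18s-rs5 was 1.35% and 1.21% in Cre, against 2.07% and 7.45% in GFP.

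Of the 10 family genes, Lif and Il6st fell in the Cre libraries and none rose, by edgeR's quasi-likelihood test at an adjusted p under 0.05. Over all 14483 genes tested, 6.97% passed that threshold (3.74% higher and 3.22% lower in Cre). All 10 family genes passed the low-count filter. The log2 fold change of Cre over GFP was negative in 9 of them, with a median of -0.22 and a range from -0.51 to 0.09, where the median over all tested genes was 0.00. Its median size was 0.22 regardless of sign, against 0.12 over all tested genes. In 8 of the 10 both Cre libraries lay below both GFP libraries, and in 1, Osmr, both lay above. Groups did not overlap in 50.0% of all tested genes. At an unadjusted p under 0.05 edgeR gave 5 family genes, all lower (Il6, Lif, Il6st, Lifr and Socs3), where 20.9% of all tested genes reached that level and 10.4% did so with a lower value in Cre. DESeq2 called none of the 10 at an adjusted p under 0.05, and 3% of the 12517 genes it adjusted.

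Promoters are shown for 4 of these genes: Lif and Il6st, the 2 genes that fell, Il6, the founding ligand, and Socs3, the feedback gene of the pathway. Each window runs from 250 bases before to 50 bases after the RefSeq start on GRCm38.p6, written along the strand of the gene. Capitals mark matches on either strand to one of 4 motifs: TTCNNNGAA for STAT factors, GGNNTTTCC for NF-kappaB, TGANTCA for AP-1 and TTGCNNAA for C/EBP factors. No 2 of the marked matches overlap.
Lif (chr11:4257318-4257617, plus strand): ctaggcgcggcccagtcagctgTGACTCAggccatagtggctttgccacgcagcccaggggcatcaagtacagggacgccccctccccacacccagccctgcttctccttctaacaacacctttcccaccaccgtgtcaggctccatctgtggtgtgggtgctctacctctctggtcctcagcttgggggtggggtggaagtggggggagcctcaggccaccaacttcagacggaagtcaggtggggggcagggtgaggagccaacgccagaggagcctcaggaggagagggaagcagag
Il6st (chr13:112463820-112464119, plus strand): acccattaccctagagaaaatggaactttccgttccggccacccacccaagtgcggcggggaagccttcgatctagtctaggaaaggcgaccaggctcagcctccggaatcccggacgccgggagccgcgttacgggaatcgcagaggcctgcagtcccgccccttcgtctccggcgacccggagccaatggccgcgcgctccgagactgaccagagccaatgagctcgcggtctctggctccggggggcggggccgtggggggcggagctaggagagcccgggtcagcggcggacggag
Il6 (chr5:30012864-30013163, plus strand): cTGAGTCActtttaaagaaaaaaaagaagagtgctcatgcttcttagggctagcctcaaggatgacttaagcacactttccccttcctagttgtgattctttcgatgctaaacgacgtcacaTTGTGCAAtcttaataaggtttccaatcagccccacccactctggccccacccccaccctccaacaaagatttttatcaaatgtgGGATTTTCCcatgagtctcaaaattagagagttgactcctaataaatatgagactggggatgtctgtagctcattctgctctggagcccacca
Socs3 (chr11:117969317-117969616, minus strand): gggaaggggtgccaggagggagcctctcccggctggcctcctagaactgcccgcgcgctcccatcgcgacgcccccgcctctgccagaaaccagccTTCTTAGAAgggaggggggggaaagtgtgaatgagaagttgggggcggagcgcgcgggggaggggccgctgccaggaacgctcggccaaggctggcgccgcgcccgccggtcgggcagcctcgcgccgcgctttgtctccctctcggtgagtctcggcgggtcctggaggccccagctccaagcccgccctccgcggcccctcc
The Lif window held an AP-1 match (TGACTCA) that began 228 bases before the start, and the Il6st window held none of the 4 motifs. The Il6 window held AP-1, C/EBP and NF-kappaB matches, the last (GGATTTTCC) beginning 43 bases before the start. A STAT match (TTCTTAGAA) began 154 bases before the RefSeq start used for Socs3. That start, at 117969366, lies inside the annotated gene, which ends at 117970047 on the minus strand. The match is therefore within the gene as annotated, and sequence before its outer start was not searched. The starts used for Osmr, for both windows of Lifr and for 1 of Il11 also lay well inside the annotated gene. Windows were found for 9 of the 10 genes, 11 windows in all, since Il11 and Lifr each had 2; Clcf1 had no entry. The AP-1 motif occurred in 4 of the 11 windows (Il6, Il11, Lif and Osmr), against 7.81% of 32851 mouse promoter windows. The STAT, NF-kappaB and C/EBP motifs occurred in 1 window each, against 8.30%, 5.82% and 10.8% of all windows. Lif and Il6st also differed in base composition, with a GC content of 63.7% and 7 CpG dinucleotides for Lif and 68.3% and 33 CpG for Il6st. The Il6 window had a GC content of 44% and 3 CpG, that of Socs3 73.3% and 31 CpG, and the median over all windows was 52.7% GC.

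Among the ligands, Lif was the most abundant. It lies on chromosome 11 from 4257557 to 4272514 (GRCm38, GENCODE M21) and encodes leukemia inhibitory factor, a cytokine that signals through Lifr and gp130. Lif had 79.7 and 81.1 CPM in the Cre libraries, against 92.2 and 96.1 CPM in the GFP libraries. Both Cre libraries were below both GFP libraries, and the gap between the groups was wider than the spread within either. On the log2 scale the fold change came to -0.23 (standard error 0.07, edgeR adjusted p = 0.0343), a fold of 0.855 with a 95% interval from 0.778 to 0.940. Leaving out any 1 of the 4 libraries ended the call, with log2 fold changes from -0.26 to -0.19. In such fits far fewer genes passed in all, and hardly any when a GFP library was left out. Without GFP replicate 2 the call of Setd2 was lost too, at a log2 fold change of -1.59. Loss of a call without a GFP library therefore says little about a gene. Setd2 kept its call without Cre replicate 1 and without Cre replicate 2, where this limit does not apply.

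Il6, on chromosome 5 from 30013114 to 30019981, had the largest difference of the 10 by fold but rested on only 54 to 69 counts per library. Its level was 3.94 and 3.73 CPM in Cre, against 5.10 and 5.88 CPM in GFP. The groups did not overlap. The log2 fold change of -0.51 had a standard error of 0.19 and did not pass (adjusted p = 0.100). Its 95% interval ran from a fold of 0.537 to one of 0.917.

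Il11 and Clcf1 gave no call. Il11, the gene of a cytokine that uses gp130 with its own private chain, had 2.56 and 1.73 CPM in Cre, against 2.74 and 2.64 CPM in GFP. The 2 Cre libraries differed from each other by more than the lower GFP library exceeded the higher Cre library. Its log2 fold change was -0.33 with a 95% interval from -0.86 to 0.21 (adjusted p = 0.518). It was -0.63 without Cre replicate 1 and -0.07 without Cre replicate 2. Clcf1, which encodes a ligand that signals through gp130 and the LIF receptor, had 15.2 CPM in both Cre libraries, against 15.8 and 16.4 CPM in GFP. Its log2 fold change was -0.08 with a 95% interval from -0.31 to 0.15 (adjusted p = 0.742), and 8.17% of its exon bases are shared with another annotated gene on the same strand, AC109138.7.

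**Figure D1:**
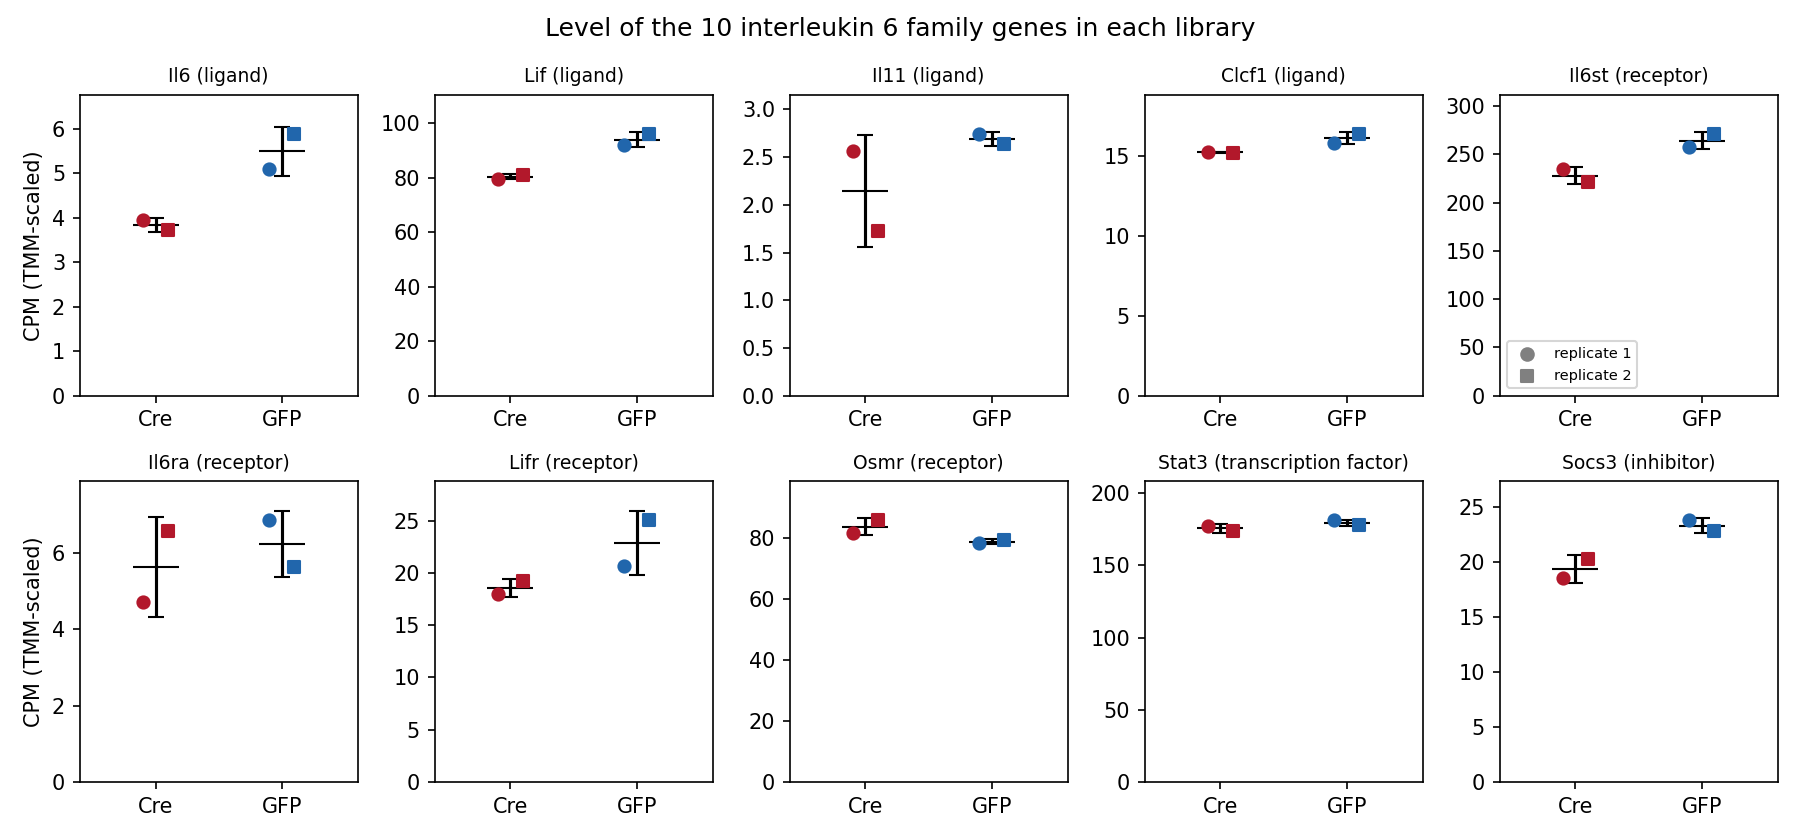
Level of each of the 10 genes in CPM, with a separate linear axis from 0 for each gene, in the Cre libraries (red) and the GFP libraries (blue); circles are replicate 1, squares replicate 2, and bars the mean and SD (n = 2 each). Both Cre libraries sit below both GFP libraries for 8 genes, Osmr has both Cre libraries above, and Il6ra overlaps.

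Of the receptor genes, only Il6st, the shared chain, passed in edgeR. The private chain gene Lifr had a larger log2 fold change (-0.29) and did not pass, so passing alone does not set the shared chain apart. Il6st, on chromosome 13 from 112464070 to 112510086, had 235 and 222 CPM in the Cre libraries, against 258 and 271 CPM in the GFP libraries. The groups did not overlap, and the log2 fold change was -0.21 with a standard error of 0.06 (adjusted p = 0.0403), a fold of 0.863 with a 95% interval from 0.788 to 0.945. Like that of Lif, this call was lost whichever library was left out, with log2 fold changes from -0.25 to -0.17. The same limit holds where a GFP library was left out. A gene count does not separate the membrane form of gp130 from transcripts for a soluble form.

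Lifr, on chromosome 15 from 7090614 to 7197489, encodes the LIF receptor chain. It had 18.0 and 19.2 CPM in Cre, against 20.7 and 25.0 CPM in GFP. Both Cre libraries were lower, and the GFP libraries lay further apart than the Cre libraries. Its log2 fold change was -0.29 with a standard error of 0.11 and did not pass (adjusted p = 0.0955), and it was -0.15 without GFP replicate 2 and -0.43 without GFP replicate 1.

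Osmr lies on the same chromosome as Lifr, from 6813577 to 6874969 on the opposite strand, and encodes the chain that pairs with gp130 for oncostatin M. It had 81.7 and 85.6 CPM in Cre, against 78.2 and 79.3 CPM in GFP. Here both Cre libraries were the higher ones. The log2 fold change of 0.09 did not pass (adjusted p = 0.504), and its 95% interval ran from -0.05 to 0.23.

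Il6ra encodes the private chain for interleukin 6. It had 4.71 and 6.57 CPM in Cre, against 6.85 and 5.62 CPM in GFP. The groups overlapped. The log2 fold change was -0.15 with a 95% interval from -0.52 to 0.22 (adjusted p = 0.690), and it turned to 0.07 without Cre replicate 1 and to 0.00 without GFP replicate 1. The macrophage markers of these cultures were higher in sum in the Cre libraries, but not without Lyz2, where the groups overlapped as given above. In bulk RNA, fewer cells of a type and less RNA per cell cannot be told apart, and the part of macrophages in the levels of the 10 genes was not tested.

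Downstream of the receptors, Stat3 differed little and its target Socs3 was lower without passing. Stat3, the gene of the main STAT factor of the family, lies on chromosome 11 from 100885098 to 100939540. It had 178 and 174 CPM in Cre, against 181 and 178 CPM in GFP, and the groups lay side by side with a gap smaller than either group's spread. Its log2 fold change was -0.03 (adjusted p = 0.825) with a 95% interval from -0.16 to 0.10, a fold between 0.895 and 1.07. Socs3, on chromosome 11 from 117966079 to 117970047, had 18.5 and 20.2 CPM in Cre, against 23.7 and 22.8 CPM in GFP. Both Cre libraries were lower, and the log2 fold change was -0.27 with a standard error of 0.10 (adjusted p = 0.106), and the 95% interval ran from a fold of 0.721 to one of 0.958.

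**Figure D2:**
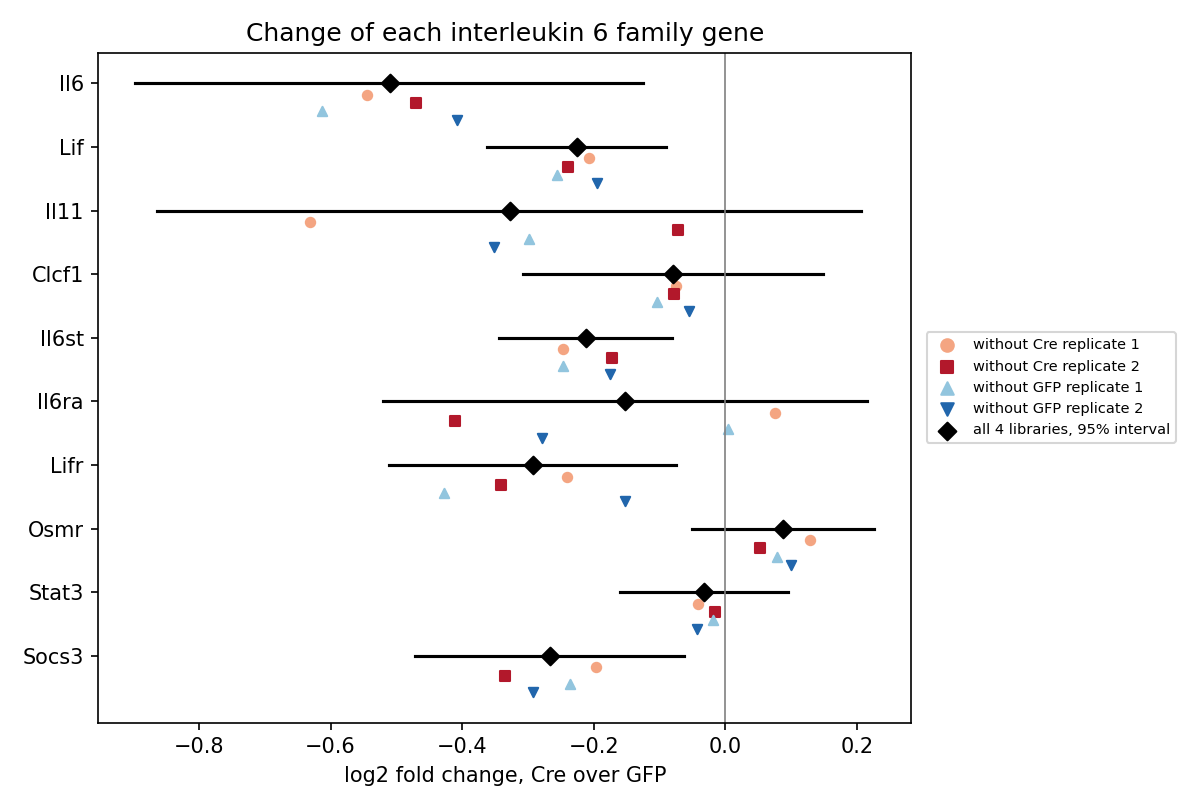
Log2 fold change of Cre over GFP for each of the 10 genes, with 0 marked by the grey line; black diamonds and bars are the estimate from all 4 libraries and its 95% interval, and coloured symbols the estimate without 1 library. The intervals of Il6, Lif, Il6st, Lifr and Socs3 lie below 0, and Il6ra is the gene whose estimates without 1 library fall on both sides of 0.

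Levels were compared between genes only after division by length, as CPM per kb of all annotated exon bases, averaged over the 4 libraries. The 3 highest genes were Il6st at 22.2, Lif at 20.1 and Stat3 at 18.6 CPM per kb, with ranges over the libraries that overlapped between neighbours in this order. Socs3 (7.38 CPM per kb) and Osmr (6.70) followed and also overlapped, and Clcf1 stood at 4.11. Lifr and Il6 had the same level within their spread, 1.92 CPM per kb each. Il11 (1.16) and Il6ra (0.687) were the lowest, and their ranges did not overlap.

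The shared chain therefore exceeded each private chain in every library. Per kb of exon, the level of Il6st was 3.14 and 2.83 times that of Osmr in the Cre libraries, against 3.60 and 3.73 times in the GFP libraries. For Lifr the ratio was 12.7 and 11.2 in Cre, against 12.1 and 10.5 in GFP, and for Il6ra 38.8 and 26.3 in Cre, against 29.3 and 37.5 in GFP. The groups did not overlap for the ratio to Osmr and overlapped for the other two. Divided by the longest annotated transcript instead, a choice made after the data were seen, Stat3 led with 29.4 CPM per kb, Il6st had 28.4 and Lif 21.7, and Osmr (14.8) moved ahead of Socs3 (8.36).

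**Figure D3:**
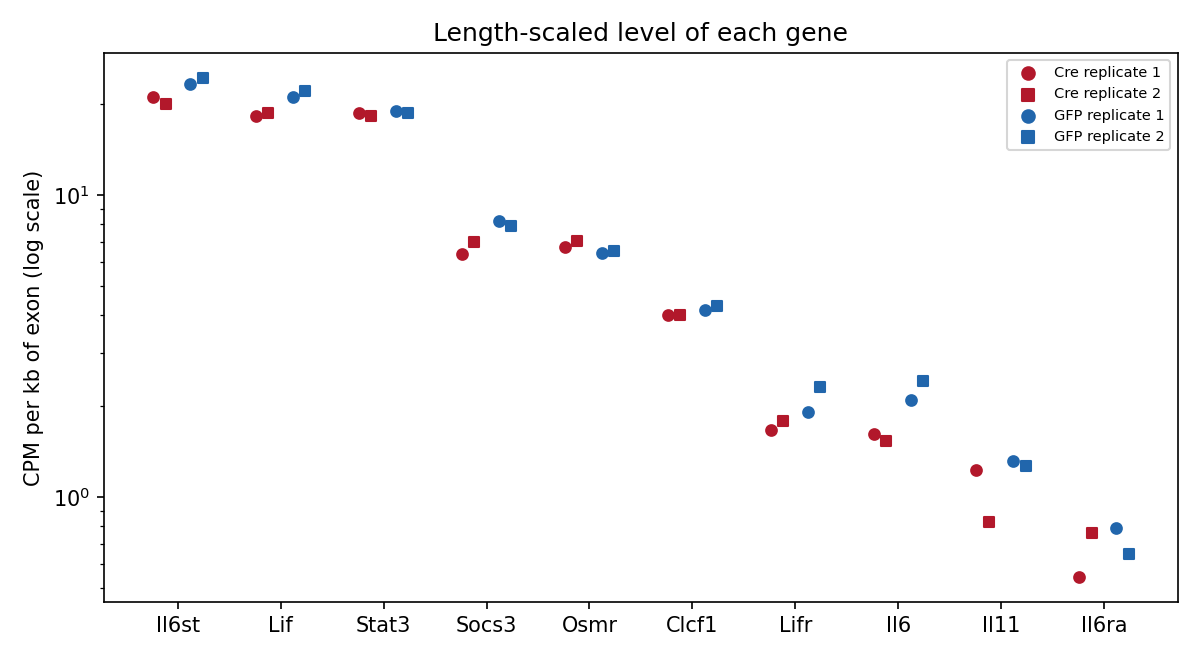
Level of each gene in CPM per kb of exon on a log axis, ordered from highest to lowest mean, with 1 point per library (red Cre, blue GFP, circles replicate 1, squares replicate 2). Il6st, Lif and Stat3 lie between 18.2 and 24.4 CPM per kb, and Il6ra lies between 0.545 and 0.793.

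Other genes of the pathway were taken from 7 lists of 79 genes, of which 67 passed the low-count filter. Of the 67, 7 fell and none rose (10.4%, against 6.97% of all tested genes), and their median log2 fold change was -0.02. Outside the acute phase list 3 genes fell, namely Jak2, Stat2 and Nfkb1. DESeq2 called 2, Saa3 and C3, and gave no adjusted p to some of the 67.

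The remaining ligands and receptors gave no call. Of 8 other cytokine genes 5 were tested, with a median of 0.05, and of 7 genes of other receptors and sheddases 4 were tested, with a median of 0.09. None of these had an unadjusted p under 0.05 in edgeR. DESeq2 called none, but gave an adjusted p to only 2 of the 5 cytokine genes. Ebi3, a subunit gene of interleukin 27, had 5.19 and 6.22 CPM in Cre, against 5.18 and 5.28 CPM in GFP (log2 fold change 0.13, adjusted p = 0.739), and 23.4% of its exon bases lie over an antisense gene. The sheddase genes Adam10 and Adam17, whose products can release the interleukin 6 receptor from the cell surface, both stood at 0.06 (adjusted p = 0.642 and 0.672). Il31 had 0 counts in every library, and its receptor gene Il31ra and Il11ra2 had at most 2 and 1 counts.

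Among 11 genes of JAK kinases, other STAT factors and the phosphatase SHP2 (Ptpn11), 2 fell, none rose, and 10 had a negative log2 fold change, with a median of -0.14. Over all tested genes, 3.22% were called lower, and 7402 of 14483 had a negative log2 fold change. Jak2, the gene of a kinase bound to gp130, had 61.5 and 60.7 CPM in Cre, against 73.4 and 74.3 CPM in GFP (log2 fold change -0.27, standard error 0.07, adjusted p = 0.0129). Stat2, a STAT factor of the interferon response, had 56.3 and 53.0 CPM in Cre, against 67.2 and 64.2 CPM in GFP (log2 fold change -0.27, standard error 0.07, adjusted p = 0.0217). For Jak2 and Stat2 the Cre libraries lay below the GFP libraries, and neither kept its call in DESeq2 (adjusted p = 0.104 and 0.161). Both calls were also lost when any 1 library was left out, with the limit given for Lif where that was a GFP library. Log2 fold changes then lay from -0.28 to -0.26 for Jak2 and from -0.30 to -0.22 for Stat2.

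No gene passed among the negative regulators or the STAT3 target genes. Of 14 negative regulators none passed, the median was -0.03, and 2 higher and 1 lower had an unadjusted p under 0.05. The phosphatase gene Ptpn1, with the most CPM before division by length, had 85.7 and 77.3 CPM in Cre, against 71.4 and 75.2 CPM in GFP (log2 fold change 0.15, adjusted p = 0.208), and Pias2 stood at -0.03 (adjusted p = 0.850). Of 16 STAT3 target genes none passed, the median was 0.00, 8 were positive and 8 negative, and 3 higher and 1 lower had an unadjusted p under 0.05. Over all tested genes, 20.9% had an unadjusted p under 0.05. DESeq2 called none in either list. Timp1, a metalloproteinase inhibitor gene, had 509 and 547 CPM in Cre, against 479 and 483 CPM in GFP (0.14, adjusted p = 0.214). The cyclin gene Ccnd1 had 378 and 369 CPM in Cre, against 429 and 419 CPM in GFP (-0.18, adjusted p = 0.0728), and 23.4% of its exon bases lie over an antisense gene.

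Of 12 genes that control Il6 transcription or messenger stability, Nfkb1, an NF-kappaB subunit gene, was the one that passed (8.33%, against 6.97% of all tested genes). It had 73.7 and 79.4 CPM in Cre, against 90.3 and 95.2 CPM in GFP (log2 fold change -0.28, standard error 0.07, adjusted p = 0.0109). The groups did not overlap, and DESeq2 gave an adjusted p of 0.0812. With 1 library left out, its log2 fold change lay from -0.33 to -0.22. The call held without Cre replicate 2 and was lost in the other 3 cases, with the limit given for Lif where a GFP library was left out. The receptor gene Tnfrsf1a had 134 and 142 CPM in Cre, against 125 and 135 CPM in GFP (0.09, adjusted p = 0.477). The median of the 12 was 0.02.

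Acute phase genes, known in liver as targets of interleukin 6, showed the largest share of falls, 4 of the 5 tested of 11 listed. Over all tested genes 3.22% fell. Saa3 had 71.5 and 72.2 CPM in Cre, against 104 and 94.1 CPM in GFP (log2 fold change -0.47, adjusted p = 3.53e-05). Falls were also recorded for C3 (-0.57), Hp (-0.44) and Lcn2 (-0.97). That of Lcn2 rested on only 27 and 28 counts in Cre, against 52 and 41 counts in GFP. All 5 tested genes had both Cre libraries below both GFP libraries, where the groups did not overlap in 50.0% of all tested genes. Saa3 and C3 kept their calls in DESeq2 (adjusted p = 5.72e-05 and 0.0311), and Hp and Lcn2 did not (0.269 and 0.231). With 1 library left out all 4 genes stayed lower in Cre. Log2 fold changes then lay from -0.54 to -0.39 for Saa3 and from -0.71 to -0.43 for C3. They lay from -0.57 to -0.31 for Hp and from -1.05 to -0.87 for Lcn2. All 4 calls were lost in edgeR without GFP replicate 1 and without GFP replicate 2, fits in which hardly any gene passed. Those of Hp and C3 were also lost without Cre replicate 1, and that of Lcn2 whichever library was left out.

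**Figure D4:**
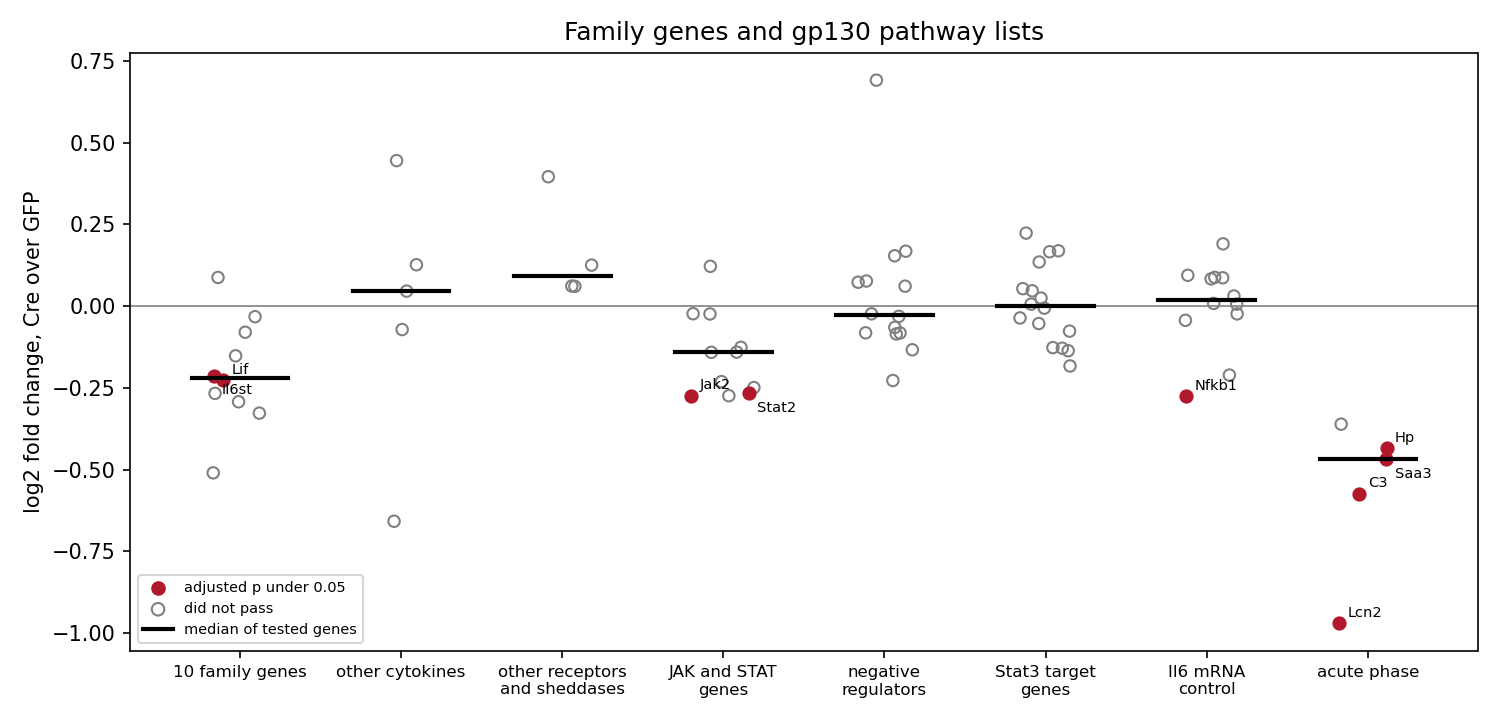
Log2 fold change of Cre over GFP for the tested genes of the family and of the 7 pathway lists, 1 point per gene, filled red where the adjusted p was under 0.05, with the median of each list as a black line. The 10 family genes have a median of -0.22 and the acute phase genes one of -0.47, while the STAT3 targets centre on 0.00.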

How the data were processed

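RNA was sequenced from 4 libraries made from 1 µg of total RNA each with a TruSeq kit that does not mark strand, per the labels' protocols. The authors deposited read counts per gene as whole numbers, without normalization. Per the submitters' processing notes, alignment used HISAT2 and GRCm38. Aligner version, counting program, annotation and multi-mapping rules were not given in the sources used here. Reads of overlapping or antisense genes therefore cannot be told apart.

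Group and replicate came from the labels. Counts were tested with edgeR 4.0.16 in R 4.3.3: filterByExpr (minimum count 10, minimum total 15) kept 14483 genes, libraries were scaled by TMM (factors 0.951 to 1.03), and the quasi-likelihood F-test had group as its only term. Benjamini-Hochberg adjustment ran over every gene tested, and an adjusted p under 0.05 was called. Standard errors and 95% intervals came from the F statistic. A count of 3 corresponded to between 0.207 and 0.255 CPM and covers counting error only. The test was checked on simulated counts with known changes, all of them larger than those of Lif and Il6st. Replicates differed by more than counting noise: relative to counting noise, the median chi-square over genes was 1.69 for the Cre pair and 2.10 for the GFP pair.

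The family members and pathway lists were chosen with earlier results of these data known. Named were the 10 members, Setd2, and from each list up to 4 called genes at a mean of at least 1 CPM by smallest p, filled up to 2 with its most abundant tested genes; C3, Hp, Lcn2 and Saa3 entered this way. A further gene that the rule names is not reported here. Emr1 is the table's name for Adgre1. Exon lengths and overlaps came from GENCODE M21, promoters from RefSeq (GRCm38.p6). Alternatives were median-of-ratios size factors, library size alone, DESeq2 1.42.0, other low-count filters and the replicate number as a block. Abundant noncoding RNA genes were also left out, together with the protein-coding gene Lars2. Last, each library was left out in turn, where a lone library is assumed to vary like the other group.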

Additional observations from a re-analysis of the deposited data

How the results depend on the processing

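The calls of Lif and Il6st held with median-of-ratios size factors, with a filter of at least 1 CPM in 2 libraries and without the abundant noncoding RNA genes and Lars2. The count of family genes called, 2 in the main test, was 0 with scaling by library size alone, 0 in DESeq2, 0 without a low-count filter and 0 with the replicate block. It was 0 whichever library was left out. The samples share only a replicate number (the deviations of same-numbered libraries from their group means correlated at -0.02), and with the block Lif had an adjusted p of 0.0568 and Il6st one of 0.0717. The 7 pathway genes called became 3 with library size alone, 2 in DESeq2, 0 without a filter and from 0 to 4 with 1 library left out. Over all genes the 1009 calls became 530 with library size alone (347 higher and 183 lower, against 542 and 467), 376 in DESeq2, 30 without a filter and from 0 to 516 with 1 library left out; without GFP replicate 2 none passed edgeR and 2197 had an unadjusted p under 0.05. With 1 library left out, log2 fold changes changed sign for Il6ra (from -0.411 to 0.0748) and Ebi3 (from -0.00945 to 0.258), and with library size alone Pias2 stood at 0.00129. The cause was not tested. The other 9 family genes kept their sign under the 7 settings and with any 1 library left out. Depth limits Il6, Il11 and Il6ra, whose standard errors lay between 0.18 and 0.26 on the log2 scale.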

Other observations

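Markers of macrophages, a cell type that can make and bind cytokines of this family, went in both directions. Cd68 had 2385 and 2352 counts in the Cre libraries, against 1668 and 1630 counts in the GFP libraries (log2 fold change 0.30, edgeR adjusted p = 0.00296). Emr1 had 2315 and 2305 counts in Cre, against 2525 and 2350 counts in GFP (log2 fold change -0.30, adjusted p = 0.00293). Ptprc, carried by all white blood cells, did not pass (-0.08, adjusted p = 0.655). Cd4 had 124 and 128 counts in Cre, against 72 and 57 counts in GFP (0.75, adjusted p = 0.00270), in libraries without a count for the T cell gene Cd3e.

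Socs1, a relative of Socs3 picked out after its values were seen, had the largest positive log2 fold change of the 67 pathway genes tested (0.69, standard error 0.24) and did not pass (adjusted p = 0.0842). Its level averaged 3.25 ± 0.00307 CPM in Cre and 2.01 ± 0.0681 CPM in GFP (SD, n = 2 each). It rested on 47 counts in both Cre libraries, against 27 and 23 counts in GFP. The small SD in Cre comes from these equal counts and does not reflect counting error.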
